A study of Mus musculus with 3 samples.

Results

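Homeobox genes encode transcription factors that bind DNA through a homeodomain, a folded stretch of helices of which the last lies in the major groove. The genes described here are 47 homeobox genes of the mouse, chosen by symbol. They are a part of the homeobox genes other than Hox, TALE (such as Meis and Pbx), sine oculis-related and Pax genes and Meox1. Another 74 measured homeobox genes are listed apart below. No measured value entered the rule, but earlier results of these data were known when the members were chosen. All 47 had a value, of 18193 genes measured in all. They were read by 77 of the 34945 probe sets (groups of short probes on an Affymetrix array, each given as 1 value) with 1 gene symbol. Many of these factors assign identity to parts of the embryo such as the limb, face, brain and ear. In the fetal kidney, members are known from the nephron and the ureteric tree: Lhx1, Emx2, Irx1, Irx2, Irx3 and Lmx1b have described roles or expression there. The 6 Iroquois genes (Irx) are kept among the members although their homeodomain is also of the TALE type.

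The RNA came from cells of E15.5 kidneys (embryonic day, Theiler stage 23) of CD-1 mice with the transgene Tg(Meis1-EGFP)FO156Gsat, which makes a green fluorescent protein under control elements of Meis1. Green cells were sorted by flow cytometry from pools of about 20 kidneys, 1 pool per array and 3 arrays, the sex of the embryos being unknown. The labels call the sorted population peripheral blastema in the series title and nephrogenic interstitium in the sample records. The samples form 1 group and no comparison sample was used here, so each gene was asked only if its transcript was detected over a background.

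Background was taken from 71 chemosensory receptor genes, which are made in sensory neurons. Their 95th percentile on each array is the level, and it stood at a signal of 136, 186 and 169 in replicates 1, 2 and 3. A distance is the log2 signal minus the log2 level of the same array, and a gene is called above background where its distance exceeded 0 in limma's one-sided moderated test with a Benjamini-Hochberg adjusted p below 0.05 over all genes. The test called 57.3% of all 18193 genes. Across genes the arrays correlated at Pearson's r of 0.968 to 0.969. Marker counts are read against that share. All 9 markers of kidney stroma were above background, as were 5 of 9 of nephron progenitors, 4 of 9 of the ureteric bud, 5 of 8 of the early nephron, 3 of 5 measured podocyte markers and 5 of 8 endothelial markers. Of markers of other tissues, 3 of 7 measured nerve and glia genes, 2 of 7 cartilage genes, 2 of 7 gonad and adrenal genes, 2 of 7 leukocyte genes and 0 of 7 skeletal muscle genes were above background (limma, 0 at an unadjusted p under 0.05 for muscle). The part of these other cells in the calls was not tested. No label states that the 3 pools were from separate litters, and the p-values therefore cover the spread among these samples, part of which may be technical.

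Most homeobox genes outside the Hox clusters were not above background in the sorted cells. The test called 6 of the 47 members (12.8%), against the 57.3% of all genes: Prrx1, Prrx2 and Alx1 of the paired type, Irx3 of the Iroquois family, Meox2 and Cux1. The median distance of the members was -1.54 log2 units, and that of all genes was 1.51. Of the 41 members that were not called, the distances ran from -6.12 to 0.14 with a median of -1.82. An unadjusted p under 0.05 gave the same number of members, 6, and 29 members lay more than 1 log2 unit below the level. A gene without a call is not shown to be silent, since a probe set can fail, and in a sorted bulk sample fewer cells that express a gene and less RNA per cell cannot be told apart.

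**Figure D1:**
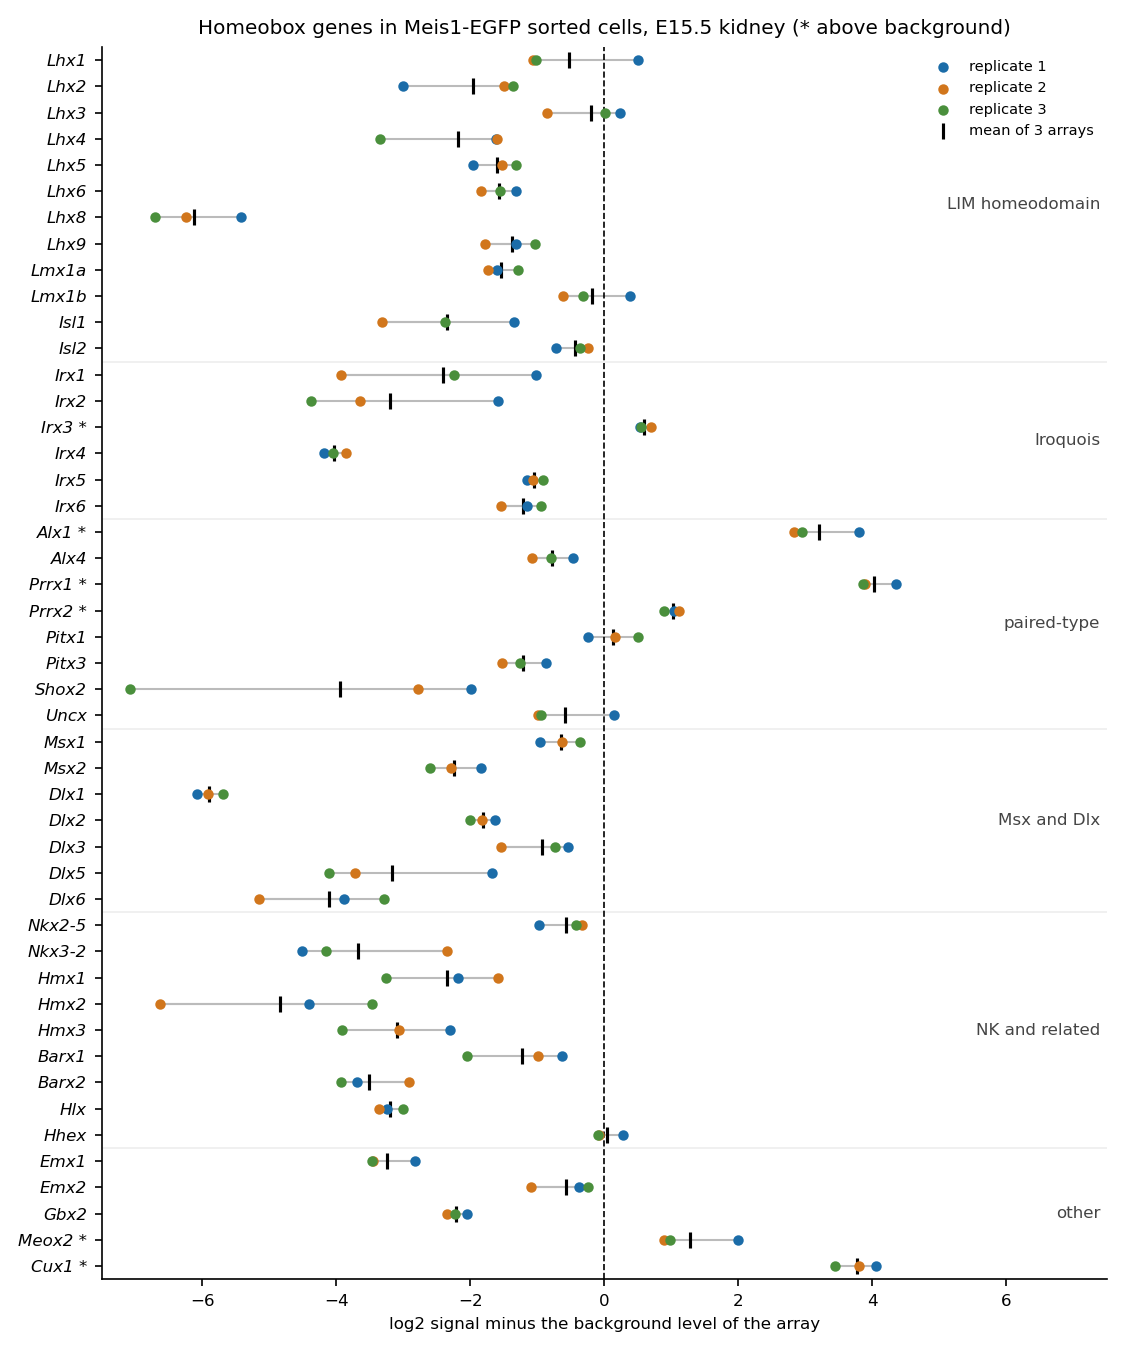
Log2 signal minus the background level of the array (x axis) for each of the 47 members (rows, by family), with a coloured point for each of the 3 replicates, a grey line over their range and a black tick at the mean; the dashed line is the level and a star marks a call. The 6 starred genes lie to the right of the line on all 3 arrays, and 35 members lie to its left on all 3.

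Most members lay on the same side of the level on all 3 arrays. The same 6 members lay above the level on every array, as did 59.2% of all genes, 35 lay below it on every array, 4 were above it on 1 array and 2 on 2 arrays. By array, 11 members exceeded the level in replicate 1, which had the lowest level, 7 in replicate 2 and 8 in replicate 3. The highest signal of a member fell in replicate 1 for 16 members, in replicate 2 for 15 and in replicate 3 for 16. Among the 41 members not called the shares were 31.7%, 29.3% and 39.0%, against 23.5%, 31.9% and 44.6% of all genes not called. Among the 6 called members they were 50%, 50% and 0%, against 40.9%, 33.1% and 25.9% of all called genes.

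**Figure D2:**
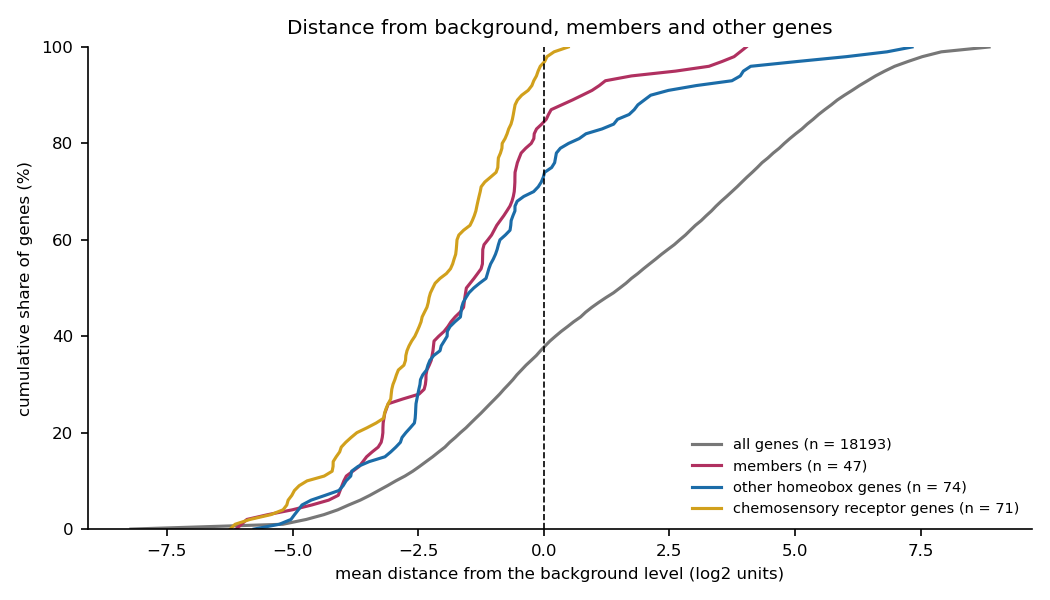
Cumulative share of genes (y axis, percent) by mean distance from background (x axis, log2 units) for all 18193 genes, the 47 members, 74 other homeobox genes and the 71 chemosensory receptor genes that set the level; the dashed line is the level. The median of the members, -1.54, lies nearer to that of the receptor genes, -2.21, than to that of all genes, 1.51.

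Paired-type factors held 3 of the 6 calls, among 8 members (37.5%, against 57.3% of all genes). Prrx1, a factor of limb and craniofacial mesenchyme, had signals of 2779, 2745 and 2451 in replicates 1, 2 and 3, which gave a distance of 4.03 ± 0.21 log2 units (SE, n = 3) or 16.3-fold over background (limma adjusted p = 4.77e-06). The 3 arrays were close together, and the SD of its log2 signal was 0.10, at the 24.1 percentile of the genes above background. Its paralogue Prrx2 had signals of 282, 402 and 315 and lay 1.02 ± 0.20 log2 units above (SE, n = 3; limma adjusted p = 0.00228). Prrx2 was highest in replicate 2, but measured from each array's own level its distances of 1.05, 1.11 and 0.90 were nearly equal.

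Alx1, a factor of craniofacial mesenchyme, had signals of 1908, 1322 and 1309 and a distance of 3.20 ± 0.27 log2 units (SE, n = 3), which is 9.16-fold over background (limma adjusted p = 3.64e-05). Replicate 1 stood above the other arrays for Alx1, with a distance of 3.81 against 2.83 and 2.95. Its relative Alx4, which acts in limb and skull, was not above background, with signals of 98.6, 87.5 and 97.9. Prrx2 lost its call with the level at the 99th percentile (0.54, limma adjusted p = 0.0769) and with a level from genes restricted to other tissues (0.26), and Prrx1 lost its call when its probe sets were averaged (0.33, adjusted p = 0.188). Alx1 fell to 1.26 with that average and kept its call.

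The stretches before the starts of Prrx1 and Prrx2 are shown because these paralogues were called together. They are the 250 bases before a RefSeq transcript start of each gene (GRCm38.p6), written 5′ to 3′ along the gene. For Prrx1 the stretch is chr1:163313651-163313900 on the minus strand, and for Prrx2 chr2:30845117-30845366 on the plus strand. Both lie inside the RefSeq span of their gene, chr1:163245119-163315145 for Prrx1 and chr2:30845064-30881251 for Prrx2. The starts used are therefore not the outer ends of these genes. Capitals mark any of 4 motifs on either strand: TAATTA, a core that many homeodomains bind, the TATA box TATAAA, the CCAAT box, and the GC box CCGCCC.
Prrx1: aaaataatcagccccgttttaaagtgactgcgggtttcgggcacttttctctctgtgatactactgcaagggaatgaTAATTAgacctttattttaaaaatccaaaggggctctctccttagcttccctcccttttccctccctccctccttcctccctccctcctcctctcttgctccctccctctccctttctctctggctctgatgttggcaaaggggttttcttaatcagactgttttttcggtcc
Prrx2: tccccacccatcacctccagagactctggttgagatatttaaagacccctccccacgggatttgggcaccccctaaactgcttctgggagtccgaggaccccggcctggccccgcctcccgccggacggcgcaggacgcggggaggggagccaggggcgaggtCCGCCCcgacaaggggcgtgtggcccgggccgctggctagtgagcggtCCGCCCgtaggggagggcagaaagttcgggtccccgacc
The Prrx1 stretch holds 1 TAATTA that begins 173 bases before the start, and the Prrx2 stretch holds 2 GC boxes that begin 87 and 39 bases before it. The windows differ in composition: from 250 bases before to 50 after the start, Prrx1 has 6 CpG dinucleotides and 47.7% G and C, and Prrx2 has 28 and 70.3%. A match of letters is a description and shows no binding.

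The remaining paired-type members were not above background. Pitx1, a hindlimb and pituitary factor, had signals of 115, 208 and 239 and a distance of 0.14 ± 0.23 log2 units (SE, n = 3; limma adjusted p = 0.474). It lay below the level in replicate 1 and above it in replicates 2 and 3. Uncx, a factor of axial skeleton and of condensing kidney mesenchyme, had signals of 151, 93.7 and 88.4 and exceeded the level in replicate 1 only (-0.59 ± 0.29). Pitx3, a lens and midbrain factor, lay at -1.22 ± 0.22, and Shox2, a limb and heart pacemaker factor, at -3.95 ± 0.96, with signals of 34.5, 27.1 and 1.25.

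Of the 6 Iroquois genes, which pattern the nephron, heart and neural tube, only Irx3 was called (16.7%, against 57.3% of all genes). Its signals of 197, 302 and 249 gave distances of 0.53, 0.70 and 0.55 and a mean of 0.60 ± 0.20 log2 units (SE, n = 3; 1.51-fold; limma adjusted p = 0.0214). All 3 arrays were above the level by a similar margin, which is small: the lowest distance called among all genes was 0.48. The call was lost without replicate 2 (0.54, limma adjusted p = 0.110), without replicate 3 (0.62, adjusted p = 0.164) and with the level at the 99th percentile (0.12). Without replicate 3 the distance was not lower, and limma gave Alx1, Alx4 and Prrx1 the same SE of 0.47 in that fit. With a level from genes restricted to other tissues the distance of Irx3 was -0.17.

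The other Iroquois genes lay below the level on every array. Irx5 and Irx6 are the neighbours of Irx3 on chromosome 8, 556 kb from Irx3 to Irx5 and 313 kb from Irx5 to Irx6, and they lay at -1.05 ± 0.20 and -1.21 ± 0.22 log2 units (SE, n = 3). Irx1, Irx2 and Irx4 form the matching cluster on chromosome 13 and lay at -2.40 ± 0.54, -3.20 ± 0.53 and -4.03 ± 0.20. Irx1 and Irx2 are known from the tubule segments of the nephron. Their signals spread widely, from 67.1 in replicate 1 to 12.2 in replicate 2 for Irx1 and from 45.4 in replicate 1 to 8.15 in replicate 3 for Irx2, all under the level.

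The stretch before the start of Irx3, the called gene of its cluster, holds none of the 4 motifs. It is chr8:91801655-91801904 on the minus strand (GRCm38.p6).
Irx3: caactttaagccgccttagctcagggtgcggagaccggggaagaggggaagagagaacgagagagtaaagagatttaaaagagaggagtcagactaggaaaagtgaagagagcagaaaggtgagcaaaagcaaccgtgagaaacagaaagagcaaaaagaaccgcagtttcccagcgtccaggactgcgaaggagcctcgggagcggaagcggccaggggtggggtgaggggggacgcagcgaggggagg
Its 300-base window has 14 CpG dinucleotides, and those of Irx2 and Irx4, which were not called, have 25 and 31. RefSeq windows were used for 36 of the 47 members, so no window is given for Irx1, Irx5, Irx6 or Alx1.

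Meox2, a factor of somites, limb muscle and vessels and the relative of the cap mesenchyme gene Meox1, was called on 1 of its 2 probe sets. The brighter probe set, 1424234_s_at, had signals of 543, 343 and 334 and a distance of 1.28 ± 0.29 log2 units (SE, n = 3; 2.44-fold; limma adjusted p = 0.00434). Replicate 1 was again the highest, and all 3 arrays lay above the level. The other, 1424233_at, had signals of 178, 258 and 226, highest in replicate 2, and lay 0.42 ± 0.20 above the level (limma adjusted p = 0.0876 over all probe sets). The ending _s_at marks a probe set that can read more than 1 transcript of related sequence, and without such probe sets the call of Meox2 was lost (0.42, limma adjusted p = 0.0704). It was also lost with a level from genes restricted to other tissues (0.52, adjusted p = 0.0719).

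Cux1, a cut-homeodomain factor found in many cell types, had signals of 2277, 2586 and 1836 on its brightest probe set and a distance of 3.77 ± 0.22 log2 units (SE, n = 3), or 13.6-fold over background (limma adjusted p = 7.10e-06). A second probe set, 1434683_at, had signals of 2044, 2069 and 1888 and was also above background. The other 7 of its 9 probe sets were not called, with distances from -2.34 to 0.38. Among them 1425612_at spread from 81.8 in replicate 1 to 194 in replicate 2 and 595 in replicate 3. With the mean over all 9 probe sets the call of Cux1 was lost (0.32, limma adjusted p = 0.208).

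**Figure D3:**
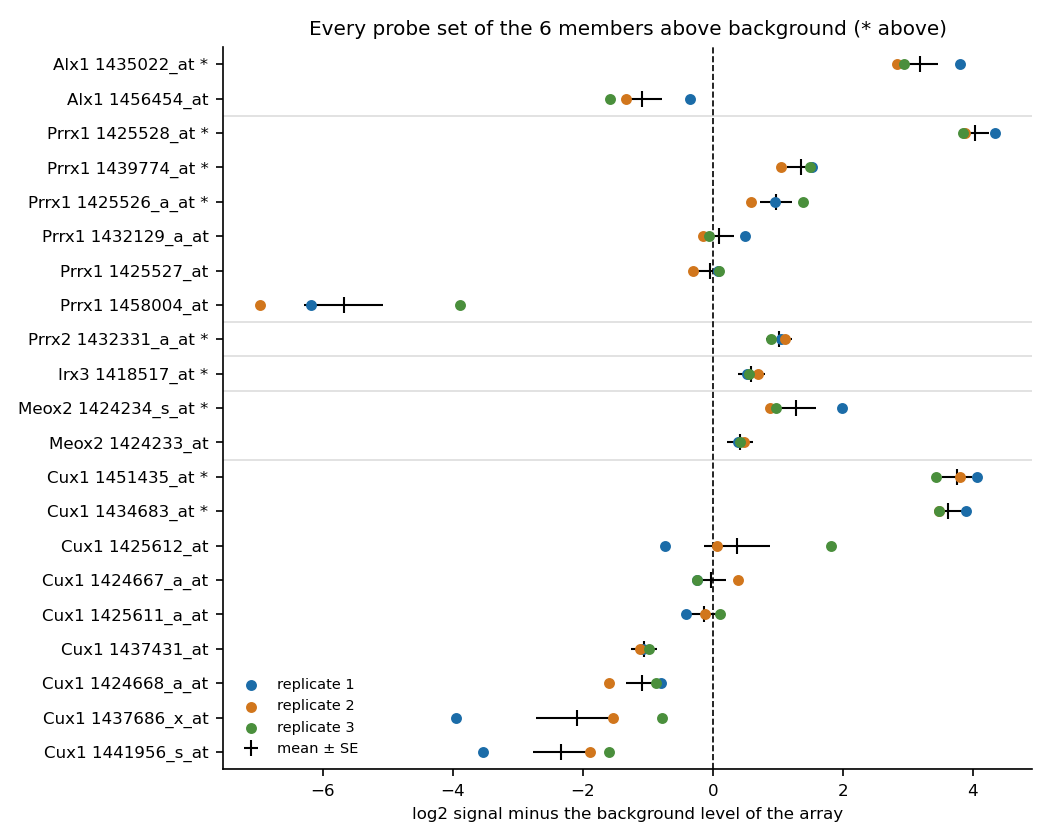
Log2 signal minus the background level of the array (x axis) for every probe set of the 6 called members (rows), with a coloured point for each replicate and a black tick and bar for the mean ± SE (n = 3); a star marks a probe set above background. Prrx1 spans from -5.68 to 4.03 over its 6 probe sets and Cux1 from -2.34 to 3.77 over its 9.

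At the level of probe sets, 9 of 77 were above background (11.7%), against 48.6% of all 34945. They belonged to the same 6 genes: 3 of the 6 probe sets of Prrx1, 2 of the 9 of Cux1, 1 of the 2 of Alx1, 1 of the 2 of Meox2 and the single probe sets of Prrx2 and Irx3. For Prrx1 the called probe sets were 1425528_at, 1439774_at (1.36 ± 0.22 log2 units, SE, n = 3) and 1425526_a_at (0.98 ± 0.25), while 1458004_at had signals of 1.88, 1.48 and 11.4. For Alx1 the second probe set, 1456454_at, had signals of 107, 73.6 and 56.3 and lay below the level on every array. The calls of Prrx1, Cux1, Alx1 and Meox2 thus rest on part of their probe sets. Of the 41 members without a call, 13 had more than 1 probe set and none of those probe sets was above background (limma). The gene call already uses the brightest probe set, so this outcome was nearly fixed in advance. The same holds for the called probe sets belonging to the same 6 genes, and neither is separate evidence.

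Meox2 and Cux1 are shown with the stretches before their starts, at chr12:37108290-37108539 on the plus strand and chr5:136565982-136566231 on the minus strand (GRCm38.p6), to set the called members side by side.
Meox2: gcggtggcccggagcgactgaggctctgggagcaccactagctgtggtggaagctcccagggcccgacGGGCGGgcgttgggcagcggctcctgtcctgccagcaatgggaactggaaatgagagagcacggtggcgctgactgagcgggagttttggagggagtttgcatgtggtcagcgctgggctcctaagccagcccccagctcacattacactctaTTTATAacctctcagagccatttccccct
Cux1: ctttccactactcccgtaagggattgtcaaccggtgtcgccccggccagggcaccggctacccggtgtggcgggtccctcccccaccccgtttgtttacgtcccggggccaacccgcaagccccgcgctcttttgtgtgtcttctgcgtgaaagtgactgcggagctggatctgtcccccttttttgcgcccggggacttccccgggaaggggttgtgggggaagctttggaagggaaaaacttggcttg
The Meox2 stretch holds a TATA box on the opposite strand that begins 29 bases before the start, and 1 GC box. The Cux1 stretch holds none of the 4 motifs and is rich in CpG, with 25 in its 300-base window.

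None of the 12 LIM-homeodomain genes was above background (limma, 0 at an unadjusted p under 0.05), against 12.8% of all members and 57.3% of all genes. These factors pair a homeodomain with LIM domains that bind cofactors, and several specify neurons. Lhx1, which is needed in the ureteric tree and the early nephron, had signals of 194, 88.8 and 83.8 and a distance of -0.52 ± 0.36 log2 units (SE, n = 3). It exceeded the level in replicate 1 only, and the other arrays lay close together below it. Lmx1b, a factor of podocytes and dorsal limb, had signals of 178, 121 and 135, also above the level in replicate 1 only, and a distance of -0.19 ± 0.26.

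Lhx3, a pituitary and motor neuron factor, had signals of 160, 103 and 171 and exceeded the level on 2 arrays (-0.20 ± 0.28 log2 units, SE, n = 3). Isl2, also of motor neurons, had signals of 82.9, 157 and 132, below the level each time. The other 8 also lay below the level on every array: Lhx2 at -1.95 ± 0.37, Lhx4 at -2.18 ± 0.39, Lhx5 of the forebrain at -1.60 ± 0.22 and Lhx6 of cortical interneurons at -1.57 ± 0.21. Lhx8 lay at -6.12 ± 0.29, Lhx9 of the gonad at -1.38 ± 0.23, Lmx1a of the roof plate at -1.54 ± 0.21 and Isl1, of motor neurons and heart progenitors, at -2.35 ± 0.39. Lhx8 had signals of 3.18, 2.46 and 1.62.

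A list of 10 genes of the LIM cofactor system had 8 above background, against 57.3% of all genes. It holds Ldb1 and Ldb2, which bind LIM domains, proteins that act on them, and the LIM-only proteins Lmo1 to Lmo4, which compete with LIM-homeodomain proteins for Ldb1. Ldb1 lay at 0.67 ± 0.26 log2 units (SE, n = 3; limma adjusted p = 0.0385), Ldb2 at 5.89 ± 0.25, and the LIM-only proteins Lmo1 and Lmo2 at 1.53 ± 0.25 and 2.12 ± 0.20. Lmo3 (-2.05 ± 0.50) and Ssbp4 (0.49 ± 0.23) were not above background. The call of Ldb1 was lost without replicate 1 (0.39, adjusted p = 0.0947) and without replicate 3 (0.74, adjusted p = 0.0992), and with the level at the 99th percentile (0.20). Corepressors that homeodomain proteins recruit were above background in 9 of 10 measured cases, against the same 57.3%, with the Groucho proteins Tle1 at 4.73 ± 0.21, Tle2 at 2.36 ± 0.21, Tle3 at 6.16 ± 0.20 and Tle4 at 6.11 ± 0.22, and Tle6 not above at -0.37 ± 0.38.

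None of the 7 Msx and Dlx genes was above background (limma, 0 at an unadjusted p under 0.05), against 12.8% of all members and 57.3% of all genes. Msx1, which responds to BMP signals in limb, tooth and face, had signals of 70.2, 120 and 132 and lay at -0.65 ± 0.22 log2 units (SE, n = 3), below the level on every array. Msx2 lay at -2.24 ± 0.23. The Dlx genes act in jaw, limb and forebrain, and Dlx3 lay at -0.93 ± 0.27. The pairs that lie beside each other in the genome were both without a call: Dlx1 (-5.89 ± 0.20) and Dlx2 (-1.82 ± 0.20), 9.43 kb apart on chromosome 2, and Dlx6 (-4.11 ± 0.38) and Dlx5 (-3.17 ± 0.49), 9.83 kb apart on chromosome 6.

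None of the 9 NK and related genes was above background (limma, 0 at an unadjusted p under 0.05), against 12.8% of all members and 57.3% of all genes. Hhex, a factor of liver, thyroid and endothelium, had signals of 166, 176 and 159, with little spread, and lay at the level (0.039 ± 0.21 log2 units, SE, n = 3; limma adjusted p = 0.693). Nkx2-5, the heart factor, had signals of 69.6, 148 and 126 and lay at -0.58 ± 0.23. Barx1, a factor of stomach mesenchyme, lay at -1.22 ± 0.32, and the ear and eye factor Hmx1 at -2.34 ± 0.35. Hmx3 and Hmx2, 2.73 kb apart on chromosome 7, lay at -3.09 ± 0.34 and -4.84 ± 0.59. Hlx, of gut and liver mesenchyme, Barx2, and Nkx3-2, of the axial skeleton and spleen, lay between -3.67 and -3.20.

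Emx2, which the ureteric bud needs to branch and induce nephrons, had signals of 105, 86.8 and 143 and lay at -0.57 ± 0.25 log2 units (SE, n = 3). It was below the level on every array. Its cortical relative Emx1 lay at -3.25 ± 0.23, with signals of 19.2, 17.1 and 15.3, and Gbx2, which sets the midbrain and hindbrain boundary, at -2.21 ± 0.20, with signals of 33.0, 36.6 and 36.2. Of the members named above for the ureteric tree and nephron, Irx3 was called, and Lhx1, Emx2, Irx1, Irx2 and Lmx1b were not.

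Other homeobox genes, a list of 92 names of which 74 had a value, were above background in 14 cases (18.9%), with a median distance of -1.40 log2 units. The 14 included the zinc finger homeodomain factors Zeb1 (7.33 ± 0.19, SE, n = 3), Zeb2 (3.85 ± 0.22), Zfhx3 (3.95 ± 0.23) and Zfhx4 (1.83 ± 0.23) and the related Zhx1 (6.65 ± 0.23), Zhx2 (1.45 ± 0.22) and Zhx3 (5.30 ± 0.21). Also called were Adnp2 (4.02 ± 0.21), Pou6f1 (2.88 ± 0.22), Satb1 (2.18 ± 0.25), Cux2, the paralogue of Cux1 (2.00 ± 0.21), Hopx (1.77 ± 0.34), Homez (1.36 ± 0.23) and Sebox (0.86 ± 0.23). Sebox lost its call without replicate 3 (0.86, limma adjusted p = 0.0586), at the 99th percentile (0.39, adjusted p = 0.194), with the tissue-restricted level (0.10, adjusted p = 0.543) and with the mean over probe sets (0.51, adjusted p = 0.0709). Homez lost its call with the tissue-restricted level (0.60, adjusted p = 0.0913), and Pou6f1 lay at -1.45 with the mean over its probe sets. Members and this list together had 20 of 121 genes above background (16.5%), against 57.3% of all genes.

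The members without a call had starts rich in CpG, the dinucleotide that marks CpG islands. A median of 25 CpG was counted in 36 windows of 31 such members (300 bases each, RefSeq, GRCm38.p6), against 7 in 7211 windows of all measured genes without a call and 21 in 10898 windows of genes above background. The 5 windows of called members had 6, 12, 14, 25 and 28. Other homeobox genes without a call had a median of 16 in 50 windows, and those above background a median of 11 in 18 windows. These counts are descriptions of sequence, with no test. Some of the starts lie inside the RefSeq span of their gene, as for Prrx1, Prrx2 and Cux1.

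**Figure D4:**
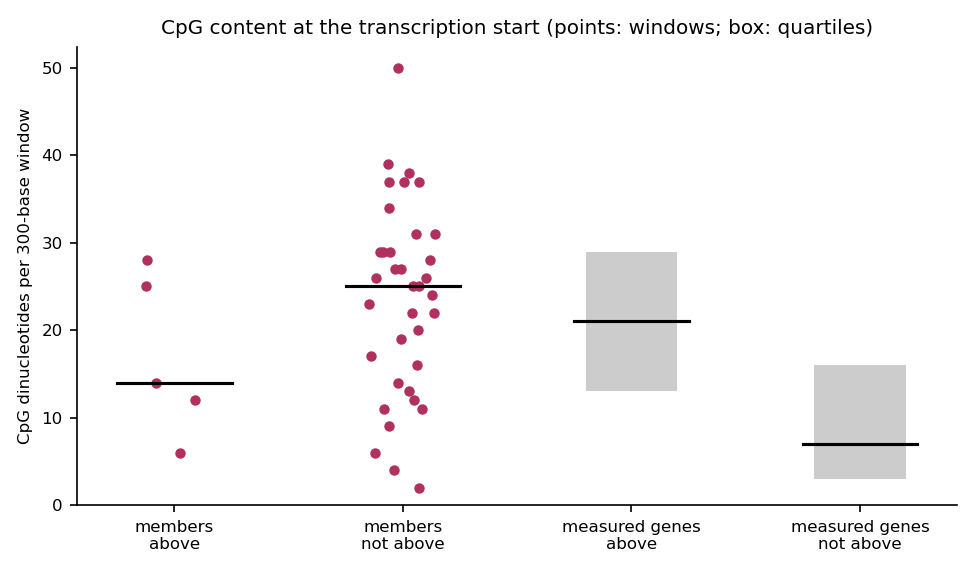
CpG dinucleotides per 300-base window around a RefSeq transcript start (y axis) for members above and not above background (points, 1 per window; line, median) and for all measured genes above and not above background (grey box, quartiles; line, median). Members not above background have a median of 25, and all measured genes not above background a median of 7.

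The motifs were read on both strands in the same windows, and hits of different motifs did not overlap in any member window. TAATTA was found in 4 of 41 member windows (9.76%), those of Prrx1, Emx2, Msx2 and Uncx, against 5.29% of all 32851 windows in the table and 3.41% of the 18109 windows of measured genes. A GC box was found in 27 member windows (65.9%), against 35.7% of all windows, 52.3% of those of measured genes and 64.1% of those of measured genes above background. The CCAAT box was found in 17 member windows (41.5%), against 37.4% of all windows and 37.4% of those of measured genes. TATAAA was found in 5 (12.2%), against 13.6% and 9.77%. No CCAAT box was found in the 5 windows of called members, and 17 of the 36 windows of members without a call held it (47.2%). Over all measured genes the shares were near equal, at 37.6% of windows of genes above background and 37.0% of those not above. The 5 windows are too few to show a contrast, and none was tested.

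**Figure D5:**
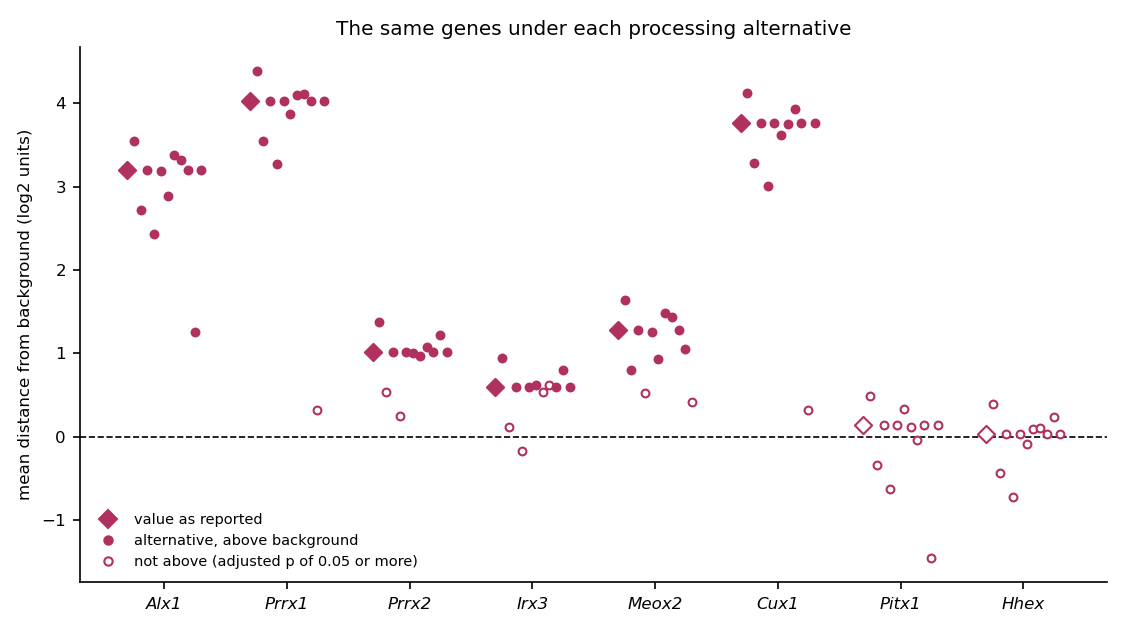
Mean distance from background (y axis, log2 units) of the 6 called members and of Pitx1 and Hhex, the uncalled members with a mean above the level, with the value as reported (diamond) and each processing alternative that gives a distance (circles); filled symbols are above background. Alx1 stays filled throughout, and Irx3 falls to -0.17 with a level from genes restricted to other tissues.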

How the data were processed

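Expression was measured on 3 arrays, 1 for each pool of sorted cells. The values the authors deposited are linear intensity values made with GCOS, per the submitters' processing notes, with version and algorithm not given in the sources used. Every array had a mean of 1500.01 once the highest and lowest 2% of values were set aside, so a scaling had been applied before deposit; log2 was taken without a pseudocount. RNA was amplified in 2 rounds, per the labels, which can favour the 3′ end of a transcript. The 3′ to 5′ log2 ratio of control probe sets was 5.00 to 5.39 for Gapdh and 3.04 to 3.40 for Actb. The part of this in the probe sets without a call was not tested. Precision is limited by the number of arrays.

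Of 45101 probe sets, 64 controls were set aside and 34945 had 1 symbol; the 932 with several symbols and the 9160 with none were left out. Symbols were matched by Entrez ID to RefSeq GRCm38.p6 (34741 matched, none changed). A gene took its brightest probe set by mean log2 signal, which can favour a call where a gene has many. The 71 background genes had 79 probe sets. Calls fell on 4 of the 17 members with more than 1 probe set and on 2 of the 30 with 1. The part of this choice in the calls was not tested. Distances were tested with limma 3.58.1 in R 4.3.3 (lmFit with an intercept, eBayes, one-sided, Benjamini-Hochberg over all genes or all probe sets, threshold 0.05), which was tested on simulated data. The SEs carry the spread of the background levels too. Alternatives changed the level (90th or 99th percentile, a common level, genes restricted to other tissues), the normalization (quantile), the arrays (each left out), the call (above the level on every array), the filter (dimmest 20% left out) and the probe sets (their mean, or without _s_at and _x_at). Probe sets differ in affinity, so distances of different genes give no order of expression. Every member is named; context lists follow a fixed naming rule (the first 4 called and the first 2 not called, and every called gene among the other homeobox genes). The members, lists and alternatives were chosen with earlier results of these data known.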

Additional observations from a re-analysis of the deposited data

How the results depend on the processing

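The 12 alternatives added no member to the 6 that were called. Leaving out 1 replicate gave 5 to 6 called members, and 7 to 8 called probe sets. Without replicate 3 limma gave Alx1, Alx4 and Prrx1 the same SE, 0.47, so a call could be lost there with no lower distance. Irx3, Ldb1 and Sebox lay at 0.62, 0.74 and 0.86 in that fit, against 0.60, 0.67 and 0.86 with all arrays. Without the dimmest 20% the SE was 0.24 for Alx1, Alx4 and Prrx1 alike. The level from genes restricted to other tissues left 3 members (Alx1, Cux1 and Prrx1) and 5 probe sets, and the 99th percentile left 4 members and 5 probe sets. In the Iroquois family the count was 0 with either of these levels and 0 to 1 on leaving out a replicate. Among Meox2, Cux1, Emx1, Emx2 and Gbx2 it was 1 with the level from tissue-restricted genes, with the mean over probe sets and without _s_at and _x_at probe sets. Of the 18193 genes, 9162 to 10976 were called across alternatives with that number tested; without the dimmest 20%, 26 members were tested and 6 called.

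Members near the level changed side. Lhx3 lay at 0.15 and Lmx1b at 0.17 with the 90th percentile, and they ranged from -0.42 to 0.12 and from -0.47 to 0.032 on leaving out a replicate. Pitx1 lay at -0.34 at the 99th percentile, -0.63 with the tissue-restricted level and -1.45 with the mean over probe sets, and ranged from -0.043 to 0.33 on leaving out a replicate; Hhex lay at -0.44 and -0.72 with those levels and ranged from -0.084 to 0.10. Irx3 (-0.17), Ldb1 (-0.091) and Ssbp4 (-0.28) fell below the tissue-restricted level. Tle6 ranged from -0.85 to 0.10 without a replicate, and Pou6f1 lay at -1.45 with the mean over probe sets. Ssbp4 was called under 4 alternatives, at 0.49 to 0.84.

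With the mean over probe sets, marker counts were 0 for nerve and glia, 1 for cartilage, 1 for gonad and adrenal cortex and 0 for leukocytes. With the tissue-restricted level they were 1 for cartilage, 1 for gonad and adrenal cortex and 0 for leukocytes, and the gonad and adrenal count was 1 at the 99th percentile and 1 to 2 without a replicate. The causes were not tested. No paired analysis was possible because the series holds 1 group.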

Other observations

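Transcripts named as opposite-strand or antisense partners of members were read by 5 probe sets for 5 of 7 such genes in the RefSeq table, and no value lay above the background level on any array. Signals in replicates 1, 2 and 3 were 9.34, 4.88 and 53.0 for Dlx1as, 38.1, 67.2 and 25.5 for Dlx6os1, and 15.6, 11.5 and 8.12 for Dlx6os2. The partner of Lhx1, Lhx1os, had signals of 60.2, 42.7 and 90.9. Emx2os lay at distances of -3.09, -1.35 and -0.53 log2 units from the level.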
